A study of Mus musculus with 8 samples.

Results

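Mitochondria keep a small circular genome of their own, and the 37 genes it carries were followed here in primary mouse cardiac fibroblasts with and without transforming growth factor beta 1 (TGF-β1). The members were the rows of the deposited gene table whose symbol starts with mt-, 37 of 56748 rows: 13 messenger RNAs, 2 ribosomal RNAs and 22 transfer RNAs. The cells came from whole hearts of 1-day-old wild-type C57BL/6J mice, and fibroblasts were kept by their quick adhesion to plastic. One group of 4 libraries was untreated, and the other 4 had been given 10 ng/mL TGF-β1 for 48 h, which turns fibroblasts toward the contractile, matrix-making myofibroblast. The series describes the replicates as isolates from different litters. The treatment protocol also names Mirin, an inhibitor of a DNA break sensor, and none of the libraries used here carries that label. Whether TGF-β1 changed the mitochondrial transcripts is the question the comparison addresses.

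Mitochondrial DNA is transcribed from both strands into long precursors that span most of the circle. Enzymes cut out the transfer RNAs that lie between the other genes, which frees the messenger and ribosomal RNAs. The messengers encode core subunits of respiratory complexes I, III and IV and of the ATP synthase, and the ribosomal and transfer RNAs serve their translation inside the organelle. All other respiratory subunits, and the whole transcription and processing machinery, come from nuclear genes. Most mitochondrial messengers carry a short poly(A) tail, which in some of them also completes the stop codon.

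Library totals ran from 14340740 to 17176898 counts. The 8 cardiac fibroblast markers were all detected (3 rose and 4 fell, median log2 fold change −0.16), with a summed normalised level of 17346 to 18872 CPM (counts scaled to the library total and its TMM factor) in untreated and 22501 to 23965 CPM in treated libraries. Cardiomyocytes are rich in mitochondria, and their 18 markers summed to 872 to 951 CPM in untreated and 478 to 559 CPM in treated libraries, with none at 0 in all libraries. Of the 17 cardiomyocyte markers tested, 15 fell and none rose (edgeR, 16 fell and 0 rose at an unadjusted p under 0.05), where 18.5% of all genes tested fell and 17.6% rose. In these bulk samples fewer cells of a type and less RNA per cell cannot be told apart, and the part of cardiomyocytes in the mitochondrial levels was not tested. The ribosomal RNA counts of untreated replicate 1 were far from those of the other libraries, so results are given with and without it.

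Mitochondrial messengers took a small and similar share of both groups. They made up 1.12% of the counts in untreated replicate 1 (95% exact binomial interval 1.12% to 1.13%), then 1.30%, 1.33% and 1.16% in replicates 2 to 4. In the treated libraries the shares were 1.33%, 1.10%, 1.14% and 1.21%. The intervals cover counting error only. The ranges of the groups overlapped over most of their width, with means of 1.23% ± 0.10 untreated and 1.20% ± 0.10 treated (SD, n = 4 and 4). Without untreated replicate 1 the untreated mean was 1.26% ± 0.087 (SD, n = 3). The 3 most counted messengers kept similar proportions: mt-Co1 held 39.7% to 41.8% of the messenger counts in every library, mt-Nd1 15.8% to 17.1% and mt-Cytb 13.2% to 15.0%. For mt-Cytb every treated library lay lower (13.2% to 13.9%) than every untreated one (14.4% to 15.0%). For mt-Nd5 every treated library lay higher (12.3% to 12.7%, against 11.9% to 12.2% untreated). The groups overlapped for mt-Co1 and mt-Nd1. Relative to the messenger sum, edgeR called neither mt-Cytb nor mt-Nd5 (adjusted p = 0.619 and 0.833). That fit called 2547 of all genes, against 5030 with TMM factors. It therefore does not settle whether these 2 shares shifted. Of the less counted ones, mt-Co3 ranged from 0.146% to 0.723% and mt-Atp6 from 0.153% to 0.468%, while mt-Co2 stayed at 0.185% to 0.231%.

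Of the 37 genes, 22 passed the filter on low counts (12 messengers, both ribosomal RNAs and 8 transfer RNAs), and TGF-β1 changed few of them. By the edgeR quasi-likelihood test, 4 rose and 1 fell at an adjusted p under 0.05, while 17 were not called. Over all 13960 genes tested, 36.0% were called, 17.6% as higher and 18.5% as lower. The median log2 fold change of the 22 was 0.11, against 0.007 over all genes tested. With library totals or upper-quartile factors in place of TMM factors, 2 rose and 1 fell. Without untreated replicate 1, 2 rose and 1 fell, with 32.8% of all genes called and a median of 0.03 for the 22 against −0.001 over all genes. The calls that rose were mt-Co3, mt-Nd6, mt-Tp and mt-Tc, and mt-Atp6 fell. Only mt-Co3 kept its call under all alternatives run, and its groups overlapped all the same.

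**Figure D1:**
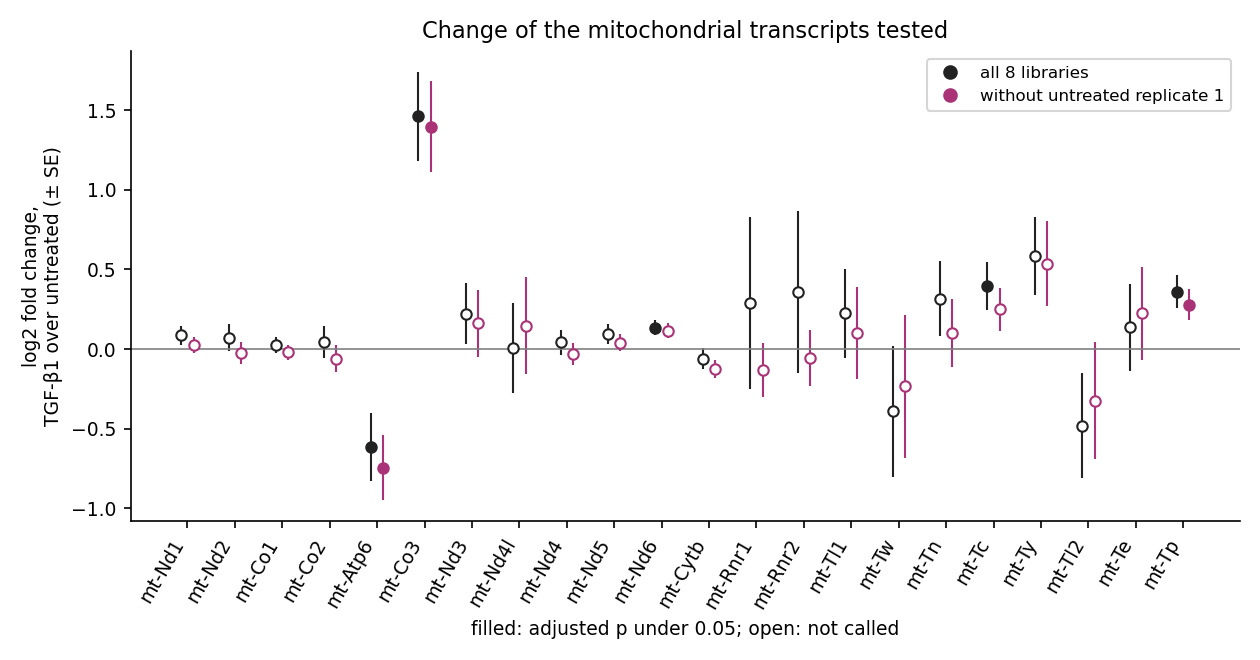
Log2 fold change of TGF-β1 over untreated cultures for the 22 mitochondrial transcripts tested (y axis; bars, SE), with all 8 libraries (black) and without untreated replicate 1 (purple). Filled points are calls at an adjusted p under 0.05. Most long messengers sit near 0 with short bars, mt-Co3 lies at 1.46, and both ribosomal RNAs have long bars that shorten when untreated replicate 1 is left out.

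Among the messengers outside the region discussed further on, no gene of complex III and only mt-Nd6 of complex I was called. mt-Nd1, a complex I core subunit (ENSMUSG00000064341, mitochondrial genome, 2751 to 3707, plus strand), stood at 1696, 2044, 2077 and 1854 CPM in untreated libraries and at 2254, 1828, 1951 and 2107 CPM in treated ones. The highest library was treated and the lowest untreated, with the other 6 in between and mixed. Its log2 fold change was 0.09 (95% interval −0.04 to 0.21, edgeR adjusted p = 0.271), or 0.03 without untreated replicate 1. mt-Nd5, another complex I subunit, changed by 0.09 (95% interval −0.03 to 0.22, edgeR adjusted p = 0.241). mt-Nd2 changed by 0.07 (95% interval −0.11 to 0.25, edgeR adjusted p = 0.565). mt-Cytb, the complex III subunit that is encoded in the organelle (ENSMUSG00000064370, 14145 to 15288, plus strand), was at 1539, 1911, 1918 and 1645 CPM untreated and 1938, 1570, 1587 and 1629 CPM treated. Its log2 fold change was −0.06 (95% interval −0.19 to 0.07, edgeR adjusted p = 0.505), and −0.12 without untreated replicate 1 (95% interval −0.24 to −0.01, edgeR adjusted p = 0.101). The intervals of these messengers exclude a 1.5-fold change in either direction, but not smaller ones.

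mt-Co1 encodes the catalytic subunit of cytochrome c oxidase (complex IV) and was the most abundant mitochondrial messenger (ENSMUSG00000064351, 5328 to 6872, plus strand). It stood at 4469, 5068, 5397 and 4626 CPM in untreated and at 5533, 4592, 4774 and 5004 CPM in treated libraries. The groups overlapped almost fully. Its log2 fold change was 0.03 (95% interval −0.08 to 0.13, edgeR adjusted p = 0.756). mt-Nd4 changed by 0.04 (95% interval −0.12 to 0.21, edgeR adjusted p = 0.722).

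mt-Nd6 is the one messenger that lies on the minus strand of the mitochondrial reference, opposite to the other 12 (ENSMUSG00000064368, 13552 to 14070), and it encodes a further complex I subunit. It was at 306, 315, 309.8 and 326 CPM untreated and at 371, 304, 342 and 362 CPM treated. The 4 untreated libraries lay close together, 3 treated ones lay above all of them, and treated replicate 2 lay below all of them. It rose by 0.13 ± 0.05 on the log2 scale (SE, edgeR adjusted p = 0.0326). The call was lost without untreated replicate 1 (0.12, edgeR adjusted p = 0.0786), and also without untreated replicate 2 or 3 or treated replicate 1, 3 or 4 (edgeR adjusted p = 0.0552 to 0.127). With library totals the value was 0.05 (edgeR adjusted p = 0.413), and relative to the sum of mitochondrial messengers it was 0.09 (edgeR adjusted p = 0.705). The labels do not say whether counting used the strand, so reads of mt-Nd6 and of precursor RNA from the opposite strand cannot be told apart.

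Genes overlap on this compact genome, and the deposited counts do not say how a read in a shared stretch was assigned. The longest stretch shared by 2 messengers is that of mt-Atp8 and mt-Atp6, 43 bases, and mt-Nd4l and mt-Nd4 share 7. mt-Nd5 and mt-Nd6 meet tail to tail on opposite strands over 14 bases. These junctions are printed from GRCm39, plus strand, with the shared bases in capitals, to show which letters belong to both genes.
mt-Atp8 and mt-Atp6, chrM:7917-7979: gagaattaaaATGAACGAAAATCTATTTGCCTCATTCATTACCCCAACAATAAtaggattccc
mt-Nd4l and mt-Nd4, chrM:10157-10183: acctactacaATGCTAAaaattattct
mt-Nd5 and mt-Nd6, chrM:13542-13575: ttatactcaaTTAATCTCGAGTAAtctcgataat

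The 3′ ends matter for libraries built from polyadenylated RNA. The annotated lengths of mt-Co3, mt-Nd4 and mt-Cytb are not multiples of 3 and leave 1 base over, the T that opens their stop codon, which the poly(A) tail completes. By their annotated spans, mt-Co1 and mt-Nd1 end in a full stop codon. The last 2 bases of mt-Nd1 are also the opening bases of mt-Ti, a transfer RNA gene on the same strand. The last 21 bases are shown (GRCm39, plus strand, stop letters in capitals).
mt-Cytb, chrM:15268-15288: aaatactaaaattatatccaT
mt-Nd4, chrM:11524-11544: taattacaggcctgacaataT
mt-Co3, chrM:9370-9390: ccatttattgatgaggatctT
mt-Co1, chrM:6852-6872: acctatgtaaaagtaaaaTAA
mt-Nd1, chrM:3687-3707: ggagtaccaccatacataTAG
By FPKM, the deposited scale of reads per length, the 3 genes whose annotated span leaves 1 base over ranked 3 (mt-Cytb), 7 (mt-Nd4) and 8 (mt-Co3) of the 13. The levels of mt-Nd4 and mt-Co3 carry the doubt described below for the chromosome 1 copy.

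Per length, the messengers fell into 2 sets with a wide gap between them. Over the 8 libraries mt-Co1 had a mean of 3141 FPKM, mt-Nd1 2031, mt-Cytb 1476, mt-Nd5 804, mt-Nd2 716, mt-Nd6 624 and mt-Nd4 609. The ranks of the leading 4 were the same in every library. mt-Nd2, mt-Nd6 and mt-Nd4 changed places between libraries and were not ordered beyond their spread. The other 6 messengers were far lower on the FPKM scale: mt-Co3 had a mean of 44.3, mt-Atp6 39.7, mt-Co2 37.1, mt-Nd3 8.76, mt-Nd4l 6.82 and mt-Atp8 0.80. mt-Co3, mt-Atp6 and mt-Co2 also changed places between libraries. The precursor that holds mt-Co1 and mt-Nd4 also holds these 6, which lie between them.

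**Figure D2:**
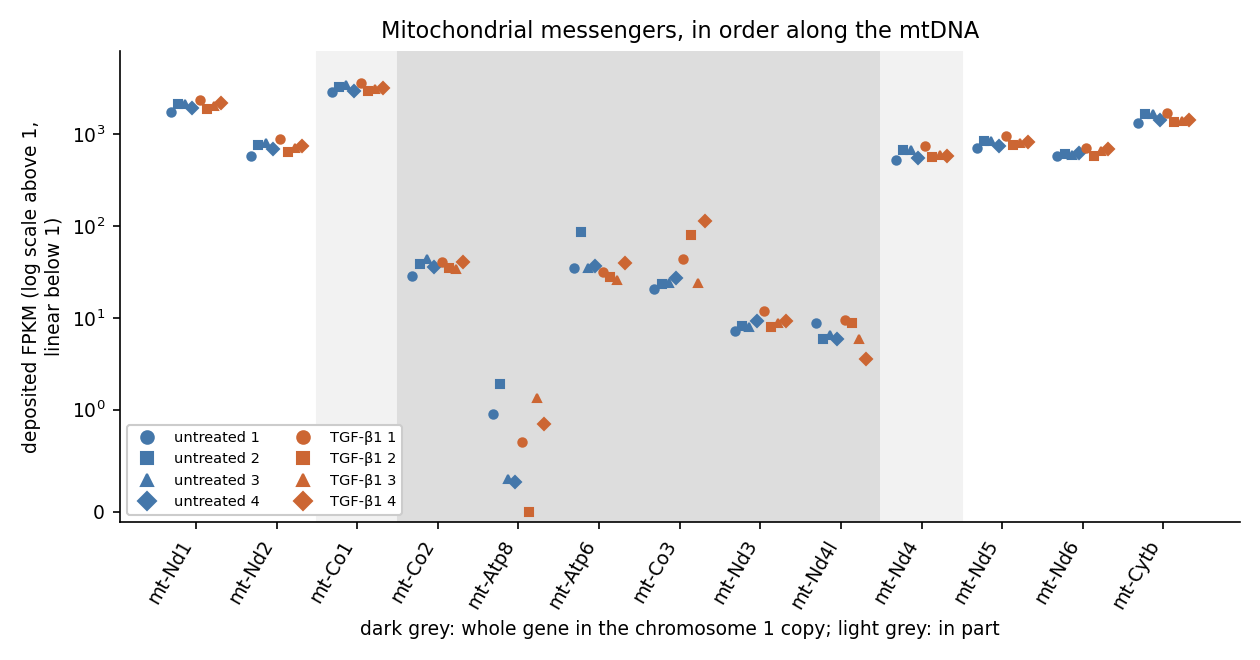
Deposited FPKM of the 13 mitochondrial messengers in their order along the genome, 1 point per library (blue, untreated; orange, TGF-β1; marker shape, replicate). The axis is logarithmic above 1 and linear below. The 6 messengers that lie wholly within the chromosome 1 copy (dark grey) sit between 0 and 112 FPKM, and the 7 others between 513 and 3529.

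The 6 low messengers are exactly those that lie whole within a near-identical nuclear copy of mitochondrial DNA. In a BLAST search of the GRCm39 reference, positions 6390 to 11042 of the mitochondrial genome matched chromosome 1, 24650616 to 24655269, minus strand, over 4654 aligned bases with 99.936% identity. The copy takes in all of mt-Co2, mt-Atp8, mt-Atp6, mt-Co3, mt-Nd3 and mt-Nd4l, the last 483 bases of mt-Co1 (31.3% of it) and 876 bases of mt-Nd4 (63.6%). The 5 messengers with no base in it are mt-Nd1, mt-Nd2, mt-Nd5, mt-Nd6 and mt-Cytb. The labels do not say how reads matching both places were counted, and the part of this in the counts was not tested. The counts of the 6 are therefore uncertain as measures of their transcripts, and so in part are those of mt-Nd4 and mt-Co1. Divided by only the bases outside the copy, the mean count of mt-Nd4 was 25.7 per base, against 9.36 over all its bases. For mt-Co1 these values were 70.4 and 48.4. Other nuclear copies were less alike or shorter. The longest of them, on chromosome 2, matched positions 4441 to 7699 with 97.4% identity and so takes in all of mt-Co1, which had the highest level.

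The mitochondrial sequence and the copy differ at 3 places, and no other letter in the stretch can assign a read to either one. The substitutions, numbered along the mitochondrial genome with its base first, are A6393T in mt-Co1 and T9461C in mt-Nd3. At the other place, in the gene mt-Tr, a run of 8 A in the mitochondrial genome is 9 long on chromosome 1. Between the substitutions, 3067 bases are the same, and this run holds mt-Co2, mt-Atp8, mt-Atp6 and mt-Co3 entire. The windows around the distinguishing letters are shown with those letters in capitals, the chromosome 1 lines being its minus strand.
mtDNA, chrM:9441-9481: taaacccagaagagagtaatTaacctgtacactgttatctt
chromosome 1, chr1:24652178-24652218: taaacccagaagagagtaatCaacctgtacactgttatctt
mtDNA, chrM:9808-9848: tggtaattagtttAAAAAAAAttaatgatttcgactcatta
chromosome 1, chr1:24651810-24651851: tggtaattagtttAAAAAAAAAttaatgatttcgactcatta
By contrast, the opening 60 bases of mt-Co3 (chrM:8607-8666) are letter for letter those of chr1:24652993-24653052.
mt-Co3 and its copy: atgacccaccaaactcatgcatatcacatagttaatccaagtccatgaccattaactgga

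mt-Co3 encodes a core subunit of cytochrome c oxidase (ENSMUSG00000064358, 8607 to 9390, plus strand) and had the largest log2 fold change of the 22 members tested. Its raw counts were 248, 280, 286 and 357 in untreated libraries and 487, 924, 272 and 1498 in treated ones. On the CPM scale these were 16.5, 18.6, 19.3 and 21.3 untreated against 34.4, 63.9, 19.1 and 89.3 treated. Treated replicates 1, 2 and 4 lay above every untreated library, and treated replicate 3 lay within the untreated range. It rose by 1.46 ± 0.28 on the log2 scale (SE, edgeR adjusted p = 0.000221), and by 1.40 without untreated replicate 1 (edgeR adjusted p = 0.000416). The treated values spread far more (51.7 ± 31.2 CPM, SD, n = 4) than the untreated ones (18.9 ± 1.99 CPM, SD, n = 4). Over the 19 alternatives the value ran from 1.05 to 1.73. The call was weaker by DESeq2 (adjusted p = 0.00792) and by limma on FPKM (adjusted p = 0.0333 to 0.0349). With no base that separates it from chromosome 1, this count is uncertain.

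The matching row on chromosome 1, the pseudogene Gm28437, did not follow mt-Co3. Its counts were 163, 191, 237 and 231 in untreated and 198, 251, 199 and 236 in treated libraries. The treated libraries with 924 and 1498 counts on mt-Co3 had 251 and 236 on Gm28437. Gm28437 itself changed by 0.16 ± 0.11 on the log2 scale (SE, edgeR adjusted p = 0.294).

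mt-Atp6, a subunit of the membrane part of ATP synthase (ENSMUSG00000064357, 7927 to 8607, plus strand), was the only member called lower. Its counts were 366, 899, 360 and 424 untreated and 309, 280, 255 and 460 treated. Untreated replicate 2 was far above the other 7 libraries, which overlapped. With all libraries mt-Atp6 changed by −0.62 ± 0.21 on the log2 scale (SE, edgeR adjusted p = 0.0277). Without untreated replicate 2 it was −0.18 (edgeR adjusted p = 0.218), and the call was also lost without treated replicate 1, 2 or 3 (edgeR adjusted p = 0.0518, 0.0729 and 0.0847). Without untreated replicate 1 it was −0.74 (edgeR adjusted p = 0.00553). The pseudogene row that matches it, Gm10925, had 173, 234, 265 and 449 counts untreated and 223, 200, 214 and 261 treated (−0.26 ± 0.16 on the log2 scale, SE, edgeR adjusted p = 0.226). Its highest value was in untreated replicate 4, not in replicate 2.

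mt-Co2, another core subunit of cytochrome c oxidase, changed by 0.05 (95% interval −0.16 to 0.25, edgeR adjusted p = 0.766), with counts of 298 to 475 over all libraries. Gm28661, its counterpart on chromosome 1, had 164 to 257. mt-Nd3 had 38 to 59 counts, with 77 to 116 on Gm28438, and mt-Nd4l had 18 to 40, with 29 to 50 on Gm10222. The fold changes of mt-Nd3 and mt-Nd4l were 0.22 ± 0.19 and 0.00 ± 0.28 on the log2 scale (SE), and neither was called. mt-Atp8, the other ATP synthase subunit encoded in the organelle, had 0 to 6 counts and missed the filter. For mt-Nd3 and mt-Nd4l the chromosome 1 row thus held more counts in total than the mitochondrial one, although both carry nearly the same letters.

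**Figure D3:**
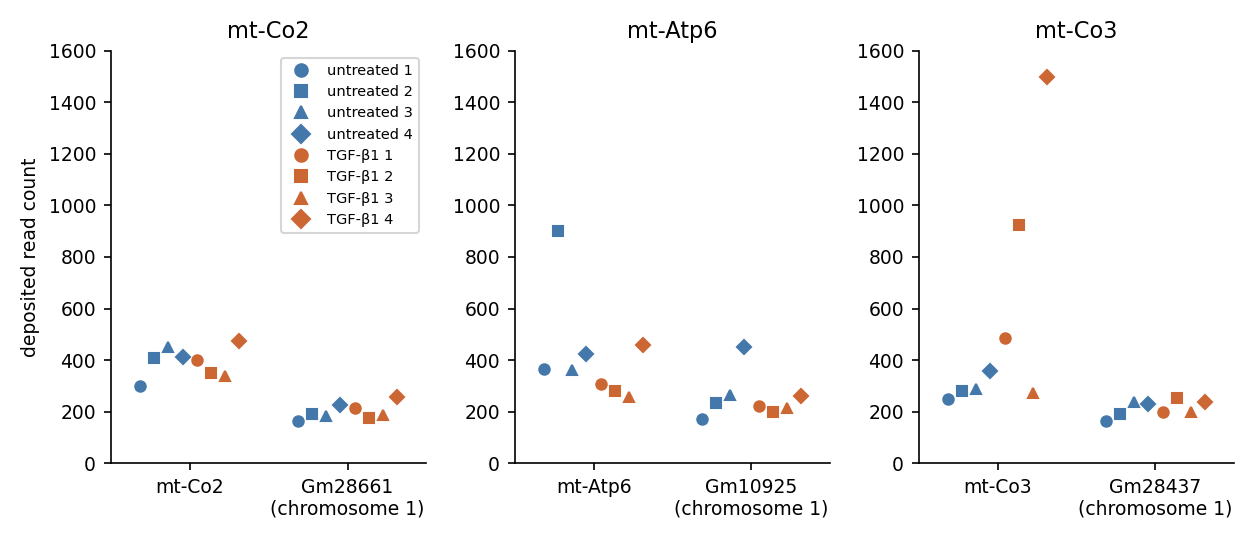
Deposited read counts (y axis, linear from 0) of mt-Co2, mt-Atp6 and mt-Co3 beside the pseudogene on chromosome 1 that matches each, 1 point per library (blue, untreated; orange, TGF-β1; marker shape, replicate). Treated replicates 2 and 4 reach 924 and 1498 on mt-Co3 and untreated replicate 2 reaches 899 on mt-Atp6, while the matching rows stay between 163 and 449.

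The 2 ribosomal RNAs of the mitochondrial ribosome differed far more between libraries than between treatments. mt-Rnr1, the 12S RNA of its small subunit (ENSMUSG00000064337, 70 to 1024, plus strand), had 4, 4933, 4836 and 5164 counts in untreated libraries and 5384, 2007, 4371 and 5862 in treated ones. mt-Rnr2, the 16S RNA of its large subunit (ENSMUSG00000064339, 1094 to 2675, plus strand), had 151, 7512, 8126 and 9028 untreated and 8256, 3337, 8494 and 10597 treated. Untreated replicate 1 was nearly empty of both, and treated replicate 2 held the next lowest counts of both. In CPM the mean of the other 3 untreated libraries was 1206 times that of untreated replicate 1 for mt-Rnr1 and 52.7 times for mt-Rnr2. Untreated replicate 1 was thus unequally poor in them, with 37.8 reads of mt-Rnr2 per read of mt-Rnr1, against 1.52 to 1.94 in the other 7 libraries.

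Rn18s-rs5, a nuclear 18S ribosomal RNA row that was singled out after its values were seen, was low in the same 2 libraries. It had 305 CPM in untreated replicate 1 and 20129 to 23629 CPM in the other untreated ones, a ratio of 72.0 for their mean. Treated replicate 2 had 10738 CPM of it, against 17480 to 25828 CPM in the other treated libraries. Lars2 encodes the mitochondrial leucyl-tRNA synthetase and is no ribosomal RNA gene, yet its row had 14.9 CPM in untreated replicate 1 and 2268 to 2486 CPM in the other untreated libraries. Why these rows share their low libraries was not tested. The messengers were not emptied there: mt-Co1 had 4469 CPM in untreated replicate 1 and 4592 CPM in treated replicate 2.

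With all libraries the log2 fold change was 0.29 for mt-Rnr1 (95% interval −0.83 to 1.41, edgeR adjusted p = 0.723) and 0.36 for mt-Rnr2 (95% interval −0.70 to 1.41, edgeR adjusted p = 0.631). By limma on log2(FPKM + 1) and log2(FPKM + 0.1), mt-Rnr1 changed by 1.78 and 2.22, outside its edgeR interval. The limma values for mt-Rnr2 were 1.23 and 1.27, and limma called neither gene (adjusted p = 0.413 to 0.439). The edgeR intervals with all libraries are thus no firm bounds. Without untreated replicate 1 the edgeR values were −0.13 for mt-Rnr1 (95% interval −0.48 to 0.22, edgeR adjusted p = 0.613) and −0.05 for mt-Rnr2 (95% interval −0.42 to 0.31, edgeR adjusted p = 0.854). Neither was called by edgeR, with or without that library, and 0 of 2 had an unadjusted p under 0.05 in either fit. With no count filter edgeR called both (adjusted p = 3.06e-11 and 6.78e-18) at nearly the same fold changes. In that setting the edgeR adjusted p also dropped to 2.41e-97 for mt-Co3 and to 7.26e-15 for mt-Atp6. The untreated counts of mt-Rnr1 ran from 4 to 5164, so p-values this small do not reflect the spread between libraries. mt-Rnr2 was also called relative to the sum of messengers (edgeR adjusted p = 0.00848). That fit included untreated replicate 1, with its 151 counts of mt-Rnr2. It gave mt-Co3 an edgeR adjusted p of 1.3e-28, so the same limit holds for it. In a poly(A)-selected library these counts do not measure the full pool of ribosomal RNA.

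**Figure D4:**
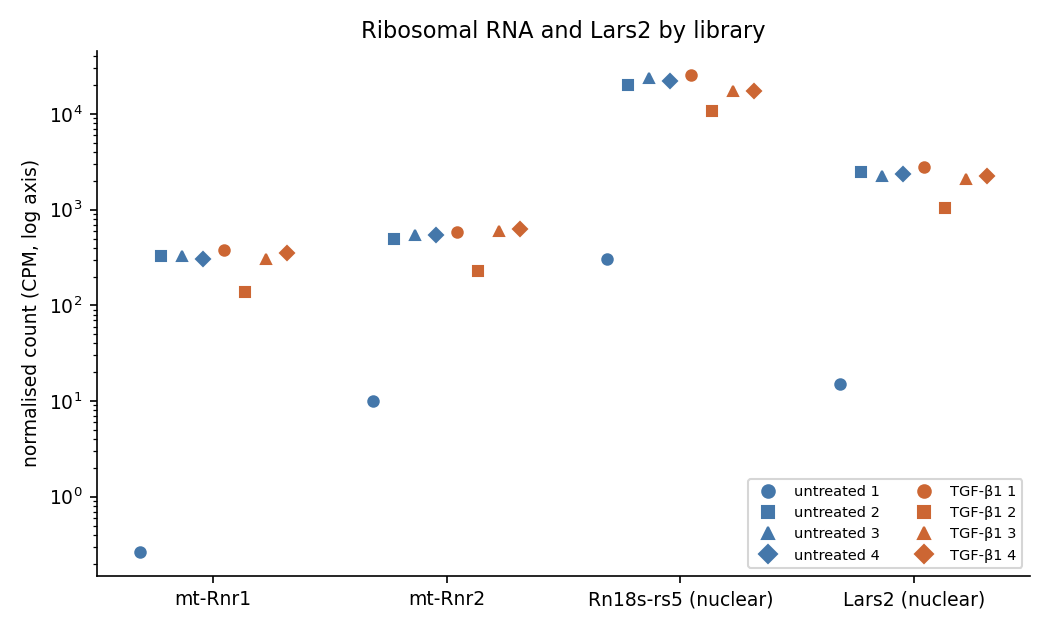
Normalised counts (CPM, log axis) of the mitochondrial ribosomal RNAs mt-Rnr1 and mt-Rnr2 beside the nuclear rows Rn18s-rs5 and Lars2, 1 point per library (blue, untreated; orange, TGF-β1; marker shape, replicate). Untreated replicate 1 lies at the bottom of all 4 columns, at 0.27, 10.0, 305 and 14.9 CPM, and treated replicate 2 is the next lowest in each.

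Transfer RNAs carry amino acids to the mitochondrial ribosome, and their mature forms are short and structured. All 22 together took 0.0052% to 0.0083% of the counts per library. No library had a read on 7 of them: mt-Tf, mt-Tv, mt-Ts1, mt-Td, mt-Tk, mt-Tg and mt-Tr. Of these, 5 (mt-Ts1, mt-Td, mt-Tk, mt-Tg and mt-Tr) are the transfer RNA genes inside the chromosome 1 copy, and 2 of the 17 outside it were also at 0. A further 7 had reads but missed the filter, among them mt-Th with 0 to 7 counts and mt-Ts2 with 9, 9, 13 and 14 untreated and 0, 6, 5 and 9 treated.

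The counts were unequal between strands. The 8 transfer RNA genes on the minus strand held 92.6% of all transfer RNA counts and the 14 on the plus strand 7.43%. Of the minus-strand genes 5 passed the filter, and of the plus-strand genes 3. Most minus-strand reads fell on mt-Tp, the proline transfer RNA (ENSMUSG00000064372, 15356 to 15422), which borders the control region, and on mt-Tc, the cysteine transfer RNA (ENSMUSG00000064349, 5192 to 5257). Without a stated strand setting, these reads may come from either strand.

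The 2 called transfer RNAs and their neighbour mt-Ty are printed in their own sense (GRCm39, minus strand, anticodon in capitals).
mt-Tp, chrM:15356-15422: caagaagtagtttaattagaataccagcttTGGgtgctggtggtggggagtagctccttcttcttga
mt-Tc, chrM:5192-5257: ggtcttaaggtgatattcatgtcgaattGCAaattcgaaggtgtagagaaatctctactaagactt
mt-Ty, chrM:5260-5326: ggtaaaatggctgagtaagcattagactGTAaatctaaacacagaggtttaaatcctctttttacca
mt-Tp had 486, 607, 713 and 572 counts in untreated and 848, 721, 666 and 707 in treated libraries. In CPM it stood at 32.3, 40.3, 48.0 and 34.1 untreated and 59.8, 49.8, 46.9 and 42.2 treated, and the groups overlapped only through untreated replicate 3. It rose by 0.36 ± 0.10 on the log2 scale (SE, edgeR adjusted p = 0.00843), or by 0.28 without untreated replicate 1 (edgeR adjusted p = 0.0319). DESeq2 and limma on FPKM did not call it (adjusted p = 0.0579 to 0.0857).

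mt-Tc had 83, 135, 124 and 150 counts untreated and 171, 132, 119 and 204 treated, with overlapping groups. It rose by 0.39 ± 0.15 on the log2 scale (SE, edgeR adjusted p = 0.045). The call was lost without untreated replicate 1 (0.25, edgeR adjusted p = 0.17), without untreated replicate 3 or treated replicate 1 or 4 (edgeR adjusted p = 0.0621, 0.136 and 0.16), and with library totals (edgeR adjusted p = 0.1). mt-Ty, the tyrosine transfer RNA next to it, had 22 to 30 counts untreated and 30 to 44 treated. Its highest untreated and lowest treated library both stood at 1.79 CPM, so its groups touched, and in FPKM they overlapped (26.3 against 26.2). No other tested member came as close to separate groups. Its change of 0.59 ± 0.24 on the log2 scale was not called (SE, edgeR adjusted p = 0.0663). The other 5 transfer RNAs tested (mt-Tl1, mt-Tw, mt-Tn, mt-Tl2 and mt-Te) had log2 fold changes from −0.48 to 0.32 and were not called.

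**Figure D5:**
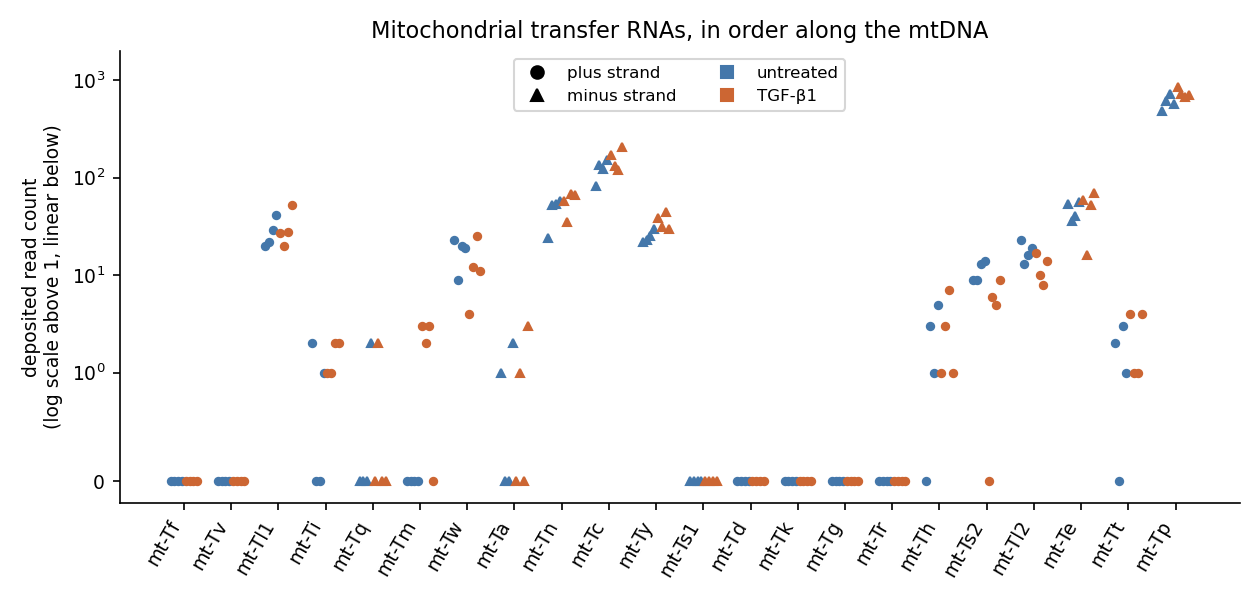
Deposited read counts of the 22 mitochondrial transfer RNAs in their order along the genome (y axis logarithmic above 1, linear below), 1 point per library (blue, untreated; orange, TGF-β1; circles, plus strand; triangles, minus strand). mt-Tp leads with 486 to 848 counts, 7 genes lie at 0 in all libraries, and the genes with the highest counts are on the minus strand.

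Nuclear genes for mitochondrial gene expression and respiration showed small changes. Over 12 lists of such genes 46 of 276 tested members rose and 8 fell, but with library totals 8 rose and 16 fell. That is 19.6% called, beside 36.0% of all genes (17.6% rose and 18.5% fell), and the median log2 fold change was 0.08. Without untreated replicate 1, 32 rose and 7 fell. The counts for single lists below were made with TMM factors and are to be read beside the shares over all genes.

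Of the genes for mitochondrial transcription and DNA upkeep, 5 of 22 rose and 1 fell, with a median of 0.08. When untreated replicate 1 was left out, 2 rose and 1 fell, with a median of 0.03. The one that fell was Dna2, a helicase and nuclease of DNA replication, named after its values were seen (−1.33 ± 0.27 on the log2 scale, SE). The rises included Tfb2m, a transcription initiation factor (log2 fold change 0.38 ± 0.08, SE), and Tefm, the elongation factor (0.34 ± 0.13, SE), whose call was lost without untreated replicate 1 (edgeR adjusted p = 0.108). Polrmt, the mitochondrial RNA polymerase, and Tfam, which packages the DNA and starts transcription, had values of 0.05 ± 0.07 and −0.04 ± 0.06 (SE, edgeR adjusted p = 0.632 and 0.716). Of the RNA processing and decay genes 4 of 23 rose and none fell (1 fell at an unadjusted edgeR p under 0.05), with a median of 0.11. Leaving out untreated replicate 1, 4 rose and 1 fell. Lrpprc, which stabilises mitochondrial messengers, rose by 0.15 ± 0.04 (SE, edgeR adjusted p = 0.00686), Elac2, which trims the 3′ ends of transfer RNAs, by 0.28 ± 0.08, and Pde12, which removes poly(A) tails, by 0.32 ± 0.06. Of the genes that modify ribosomal and transfer RNA, 5 of 24 rose and none fell (1 fell at an unadjusted edgeR p under 0.05), with a median of 0.12.

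In the mitochondrial ribosome, 10 of 48 large-subunit genes rose and none fell (1 fell at an unadjusted edgeR p under 0.05). The share that rose was 20.8%, beside 17.6% of all genes tested. Of 32 small-subunit genes 4 rose and 2 fell, with Mrps33 at 0.41 ± 0.10 and Mrps6 at −0.38 ± 0.06 (log2 fold change, SE). Among 16 translation factor genes 2 rose and none fell (0 fell at an unadjusted edgeR p under 0.05), one of them Tufm, the elongation factor (0.18 ± 0.05, SE). Of 20 synthetase genes 1 rose and 1 fell, or 0 and 1 without untreated replicate 1 (edgeR, 1 rose at an unadjusted p under 0.05 with all libraries). Lars2 changed by 0.21 ± 0.62 on the log2 scale (SE, edgeR adjusted p = 0.833), and its level depended on untreated replicate 1 as described.

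The nuclear partners of the encoded subunits rose in 8 of 37 cases for complex I, 3 of 9 for complex III, none of 14 for complex IV and 3 of 18 for ATP synthase. Without untreated replicate 1 these counts were 4, 2, 0 and 1. With all libraries the shares were 21.6% for complex I, 33.3% for complex III and 16.7% for ATP synthase, beside 17.6% of all genes tested. In complex IV 1 gene fell (by edgeR at an unadjusted p under 0.05, 1 rose and 1 fell). It was Cox4i2, an alternative isoform of subunit IV, named after its values were seen, at 2.33 CPM untreated and 0.78 CPM treated (mean, n = 4 and 4). By contrast the most abundant gene of that list, Cox4i1, was at 0.03 ± 0.04 (log2 fold change, SE). In the other 3 complexes none fell, also at an unadjusted edgeR p under 0.05. The changes were small: Uqcrq of complex III rose by 0.26 ± 0.04, Atp5g1 of ATP synthase by 0.28 ± 0.05 and Ndufa10 of complex I by 0.20 ± 0.05 (log2 fold change, SE). Among regulators of mitochondrial biogenesis 1 of 13 rose and 3 fell, and without untreated replicate 1, 1 rose and 1 fell. The median was −0.01 with all libraries and 0.01 without that one. Ppargc1a, a coactivator of nuclear genes for mitochondria, fell from 1.37 to 0.46 CPM (mean, n = 4 and 4), which is −1.57 ± 0.37 on the log2 scale (SE, edgeR adjusted p = 0.002).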

How the data were processed

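Reads of oligo(dT)-enriched, random-primed libraries had been counted per gene by the authors. The deposited table holds raw counts, and a second one holds FPKM by the authors (count per gene length, with a constant for each library). Per the submitters' processing notes, the tools were HISAT2, CASAVA, Subread and featureCounts, with GRCm38, while the series design names mm39. The 37 mitochondrial rows match GENCODE M39 (GRCm39) in position.

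Counts were tested with edgeR 4.0.16 (R 4.3.3, limma 3.58.1): filterByExpr at its defaults (minimum count 10, minimum total 15), TMM factors, and a two-sided quasi-likelihood test of group, with p adjusted by Benjamini-Hochberg across the whole filtered table. CPM values are scaled by TMM. The SE is the size of the log2 fold change over the square root of F. The function was tested on simulated data. Nuclear copies were sought with BLAST 2.17.0. Alternatives included DESeq2 1.42.0. Replicate pairs differed by 2.08 to 3.16 times the sampling noise. p-values of the main fit rest on the spread between these cultures, with the spread of each gene drawn toward that of other genes. For a member that spreads widely they can therefore be too small. For mt-Atp6 the adjusted p was 0.0277 by edgeR, 0.182 by DESeq2 and 0.166 to 0.17 by limma on FPKM. Every mitochondrial row was eligible for naming. From each nuclear list, up to 3 called genes with the smallest p and at least 5 CPM in a group, or else the most abundant, and 5 fixed ones could be named. Members and lists were chosen with earlier results of these data known.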

Additional observations from a re-analysis of the deposited data

Results flagged for a closer look

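In the 22 tested transcripts, 44 groups of 4 libraries were searched for a library far from the other 3, and 8 had one. By chance about 1 in 20 independent groups would. The 44 groups share the same 8 libraries, so their count cannot be weighed against that rate. Values are CPM. In untreated replicate 1, mt-Rnr1 was at 0.27 (others 308 to 327), mt-Rnr2 at 10.0 (498 to 548) and mt-Tn at 1.59 (3.40 to 3.64). Untreated replicate 2 had 59.6 of mt-Atp6 (others 24.3 to 25.3). Treated replicate 2 had 230.7 of mt-Rnr2 (others 582 to 632) and 1.11 of mt-Te (3.73 to 4.18). Treated replicate 1 had 1037 of mt-Nd4 (others 791 to 819) and 1938 of mt-Cytb (1570 to 1629).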

How the results depend on the processing

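For single members, 380 of 418 refits kept both the direction of any call and its side of the threshold. In 31 a call was lost, in 7 one was gained, and no called value changed sign. In 30 of the refits the sign of an uncalled value changed. The 4 higher and 1 lower calls became 2 and 1 with upper-quartile factors or library totals, and 2 and 0 with limma on log2(FPKM + 1) or log2(FPKM + 0.1), where 1 member fell at an unadjusted p under 0.05. With no count filter 7 rose, among them both ribosomal RNAs, with the limit given for these. DESeq2 called 0 lower (0 at an unadjusted p under 0.05). Leaving out each library in turn gave 2 to 4 higher (2 without untreated replicate 1 or 3 or treated replicate 1) and 0 to 1 lower calls (edgeR, 0 to 2 lower at an unadjusted p under 0.05). The nuclear lists had 8 higher and 16 lower calls with library totals, and 32 to 45 higher and 5 to 7 lower with a library left out (5 without untreated replicate 4). RLE and upper-quartile factors, tried for them after the data were seen, gave 46 and 37 higher and 8 lower. Libraries with the same replicate number did not share deviations from their group means (correlations −0.03 to 0.04), which does not settle whether they share a litter. The replicate block gave 3 higher and 1 lower. Per base outside the chromosome 1 copy, chosen after seeing the data, mt-Nd4 ranked 3 among the 7 messengers with such bases, not 7. At these counts, 14 of the 22 transfer RNAs missed the filter and were not tested; what part depth has in this was not tested.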
